A study of Rattus norvegicus with 4 samples.

Results

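Dense windows are stretches of rat chromosome 2, each 100 kb long, in which untreated spermatozoa had many called nucleosome positions. They were chosen on measured values: the positions of the table that sets the 2 control libraries against each other were counted per window, and every window with 402 or more was kept. The rule took 508 of the 2655 windows that held a position, or 19.1%. Windows are given in build rn6.

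The spermatozoa came from the cauda epididymidis of randomly bred male Holtzman rats, 75 days old. One library was from rats given cyproterone acetate, a steroid that blocks the androgen receptor and acts as a progestogen, by mouth at 20 mg per kg per day for 60 days. Another was from rats given tamoxifen, which blocks or activates estrogen receptors depending on the tissue, at 0.4 mg per kg per day for the same time, and 2 libraries were from controls on sterile water, the vehicle of both drugs. Each group held 6 animals, and how many went into a library is not stated. All 4 libraries were made alike: chromatin was cut with micrococcal nuclease, which digests DNA that no protein covers, and fragments of about 150 bp were sequenced. The series asked how sperm nucleosomes differ with and without these drugs. The headers do not say which control is which replicate, so the controls are called shallower and deeper. In the treatment tables the columns headed control were read as the treated library, against their heading, for the reasons given with the processing, and every treated value below rests on that reading.

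A nucleosome is a stretch of DNA wound around a core of histones. During the last steps of spermatogenesis most histones give way to protamines, small basic proteins that pack DNA far more tightly, and only part of the genome keeps nucleosomes. Both CpG-rich promoters and gene-poor stretches have been described as places where they stay in mammalian sperm. Each library pools many spermatozoa, so a position kept in few cells and one that gave little DNA per cell cannot be told apart. The assay measures DNA, so the cell type rests on the labels, which describe a microscopic check for round cells.

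Reads are the unit used below: the deposited coverage at the summit of a position, divided by the value of 1 read in that library. Chromosome 2 held between 1067555 (shallower control) and 1563294.5 reads (cyproterone acetate) at called positions, and a typical position held 1 or 2. No value between treated and control libraries has a replicate check, since each drug has 1 library, and no test was made. PCR copies carry no molecular identifiers, so intervals cover counting error only. They treat the summed coverage at summits as independent counts, as do the SDs from counting. Whether 1 fragment was counted at more than 1 summit was not tested, so both may be too small.

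A dense window held a median of 421 positions (lowest 402, highest 478), against 330 in the other 2147 windows. Taken as 150 bp each, the positions covered a median of 59.5% of a dense window and 47.0% of another window. The minimum lies on the shoulder of a continuous distribution: 77 windows had 402 to 406 positions and 70 had 397 to 401. Just inside it the median window held 493.5 shallower and 546.5 deeper control reads, and just outside it 481.5 and 539. With a minimum 20 positions higher 244 windows were left, and with one 20 lower there were 793.

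**Figure D1:**
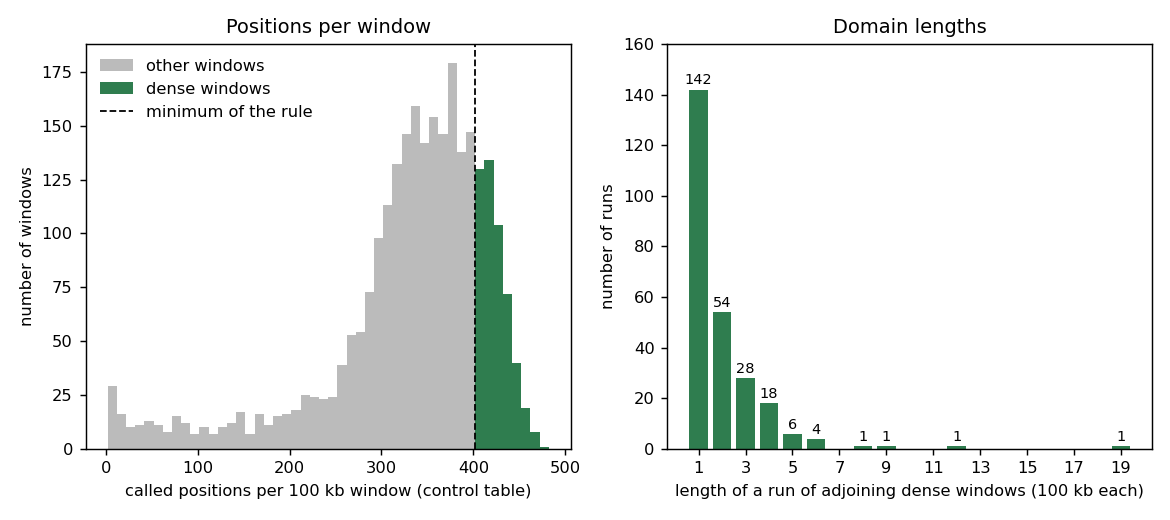
Left: number of 100 kb windows of chromosome 2 (y axis) by called positions per window in the control table (x axis), dense windows in green and the other windows in grey, with the minimum of 402 as a dashed line. Right: number of runs of adjoining dense windows (y axis) by their length in windows (x axis); 142 windows stood alone and 1 run had 19 windows.

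The most crowded window ran from 261100001 to 261200000, with 478 positions. It held 752.5 reads in the shallower control, 840.5 in the deeper control, 996.5 with cyproterone acetate and 935 with tamoxifen, and its control values were the highest of all dense windows. Next came the window from 188900001 to 189000000 with 468 positions, at 619, 674, 1004.5 and 899 reads in the same order of libraries. Both treated libraries, which have more reads in all, were above both controls in each of these windows.

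The windows from 141800001 to 141900000 and from 196400001 to 196500000 had 467 positions each. The first held 583.5, 612, 805.5 and 726.5 reads, and the second 559.5, 642.5, 1063 and 854.5. With nearly equal control reads, the second window had more treated reads than the first. The window from 211100001 to 211200000 had 466 positions and 573.5, 660, 1007.5 and 875.5 reads, and that from 80700001 to 80800000 had 465 positions and 579, 620, 884.5 and 781.5 reads. The 3 windows starting at 140600001, 187400001 and 207500001 tied at 462 positions, and those starting at 22300001 and 29500001 at 461. Among these 5, cyproterone acetate reads ran from 817 (start 140600001) to 1014 (start 187400001) and tamoxifen reads from 666.5 (start 140600001) to 830 (start 22300001).

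At the other end 12 windows had exactly 402 positions. The 5 nearest the start of the chromosome began at 4000001, 31700001, 44200001, 61100001 and 84900001. Their reads ran from 445.5 to 503.5 in the shallower control, 485 to 543 in the deeper control, 610.5 to 713 with cyproterone acetate and 543.5 to 618 with tamoxifen. The window starting at 84900001 reached the limit although 12600 bp of it, the longest such stretch among dense windows, held no position.

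Dense windows were spread over the whole chromosome, but unevenly. Between 180000001 and 190000000, 48 of 100 windows were dense, and between 200000001 and 210000000, 44 of 100. The stretches from 20000001 to 30000000 (39 of 99 windows), 250000001 to 260000000 (37 of 100) and 140000001 to 150000000 (36 of 100) came next. The stretches from 10000001 to 20000000 and from 150000001 to 160000000 held 1 dense window each, that from 130000001 to 140000000 held 2 and that from 160000001 to 170000000 held 3 of 99. The first 133 Mb had 207 dense windows of 1321, and the rest of the chromosome 301 of 1334.

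Most dense windows lay side by side. Of the 508, 366 (72.0%) touched another dense window, and together they formed 256 domains, meaning runs without a window in between. 142 of the domains were a single window, 82 had 2 or 3 windows, and 32 had 4 or more, which held 174 dense windows. The 428 windows that bordered a dense window had a median of 369.5 positions, against 322 in windows farther away, and 133 of the 428 were within 20 positions of the limit. The lowest of the 428 had 51 positions. Of the gaps between domains, 84 were 1 window wide.

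The longest domain ran from 187400001 to 189300000, 1900 kb in 19 windows of 411 to 468 positions. It ended against windows of 372 and 327 positions. Its length depended on where windows start, since with windows shifted by 50 kb the longest run on the chromosome was 9 windows. It was 9 as well where only positions with reads in the shallower control were counted, and 19 where only those with reads in the deeper control were. Bridging gaps of 1 window, the domain reached from 187400001 to 190100000, with 25 dense windows of 27.

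The second domain ran from 210200001 to 211400000 (12 windows), the third from 199600001 to 200500000 (9 windows) and the fourth from 113600001 to 114400000 (8 windows). 4 domains of 6 windows began at 23700001, 56100001, 83900001 and 203300001. 6 domains of 5 windows began at 29300001, 142000001, 189600001, 236000001, 250600001 and 259400001. The 18 domains of 4 windows began at 30000001, 62400001, 80400001, 85400001, 121100001, 128100001, 141000001, 141500001, 144500001, 195600001, 196200001, 197800001, 205900001, 207400001, 212200001, 225600001, 231200001 and 258900001. Windows inside domains of 4 or more were more crowded (median 426.5 positions) than windows that stood alone (416).

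Treated libraries took no part in the choice, and dense windows were well covered in them too. The median dense window held 525.5 reads in the shallower control, 578 in the deeper control, 779 with cyproterone acetate and 675.5 with tamoxifen. Other windows had medians of 397, 434, 566 and 467.5. In each of the 4 libraries all 508 dense windows were above the median window of the chromosome. The ranges still overlapped: the lowest dense window had 605.5 cyproterone acetate reads, while the fullest window outside the rule had 1948. Among the 508 windows with most reads, 371 were dense with cyproterone acetate and 376 with tamoxifen, against 393 and 409 in the shallower and deeper controls, which chose the windows.

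**Figure D2:**
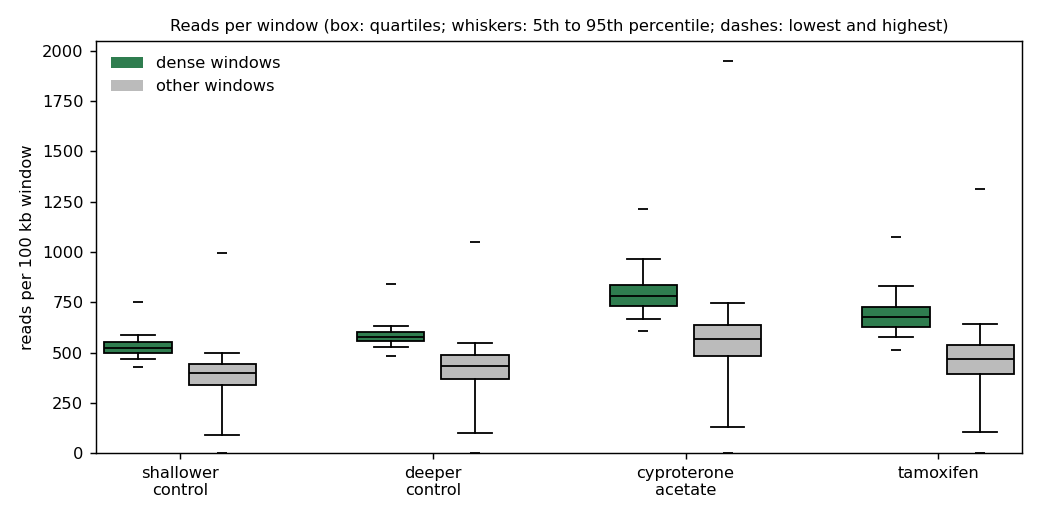
Reads per 100 kb window (y axis) in the 4 libraries (x axis), dense windows in green and other windows in grey; boxes give quartiles with the median as a line, whiskers the 5th to 95th percentile and dashes the lowest and highest window. The dense medians of 525.5, 578, 779 and 675.5 reads lie above those of the other windows in each library.

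Of all reads at called positions, dense windows held 25.05% in the shallower control (95% Wilson interval 24.97 to 25.14) and 25.14% in the deeper one (25.06 to 25.22). The share was 25.76% with cyproterone acetate (25.69 to 25.83) and 26.54% with tamoxifen (26.46 to 26.61). Both treated shares were thus above both controls, by 0.66 and 1.44 percentage points over the summed controls. Counting at most 3 reads per position, the 4 shares became 25.18%, 25.22%, 25.23% and 26.19% in the same order. The difference with cyproterone acetate was then 0.02 points, and that with tamoxifen 0.98.

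The reads of a single position were few. At occupied positions of dense windows the mean was 1.85 reads in the shallower control, 1.80 in the deeper control, 2.07 with cyproterone acetate and 1.95 with tamoxifen. In other windows it was 1.85, 1.78, 1.92 and 1.84. Between control libraries and window classes these means differed little, and the treated means were higher in dense than in other windows. Positions with 1 read or less made up 49.7%, 49.3%, 42.2% and 45.6% of the occupied positions of dense windows.

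Positions with many reads, meaning stacks at one place, were spread differently in treated and control libraries. In the controls such positions were rarer in dense than in other windows, and in both treated libraries they were more frequent there. The rule counted positions of these same controls, so the control shares describe the chosen windows and are no independent result. The treated libraries took no part in the rule. At least 10 reads were found at 90 of 144641 occupied positions of dense windows in the shallower control (0.0622%, against 0.132% in other windows) and at 28 of 163757 in the deeper control (0.0171% against 0.0648%). With cyproterone acetate it was 758 of 194923 (0.389% against 0.244%) and with tamoxifen 580 of 178480 (0.325% against 0.208%). These strong positions were not in a few windows: they lay in 313 of the 508 windows with cyproterone acetate and in 253 with tamoxifen. Other windows with such a position were not counted, so these numbers have no background. At 5 reads or more the shares in dense and other windows were 3.60% and 3.77%, 2.54% and 2.60%, 5.17% and 3.63%, and 3.91% and 3.09%. Without the windows from 185 to 215 Mb the share with 10 reads or more was 0.314% with cyproterone acetate and 0.264% with tamoxifen in dense windows. This was still above the 0.223% and 0.185% of other windows, whose shares had also fallen, from 0.244% and 0.208%. The deeper control had fewer such positions than the shallower one. The part of sequencing depth or PCR copies was not tested.

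**Figure D3:**
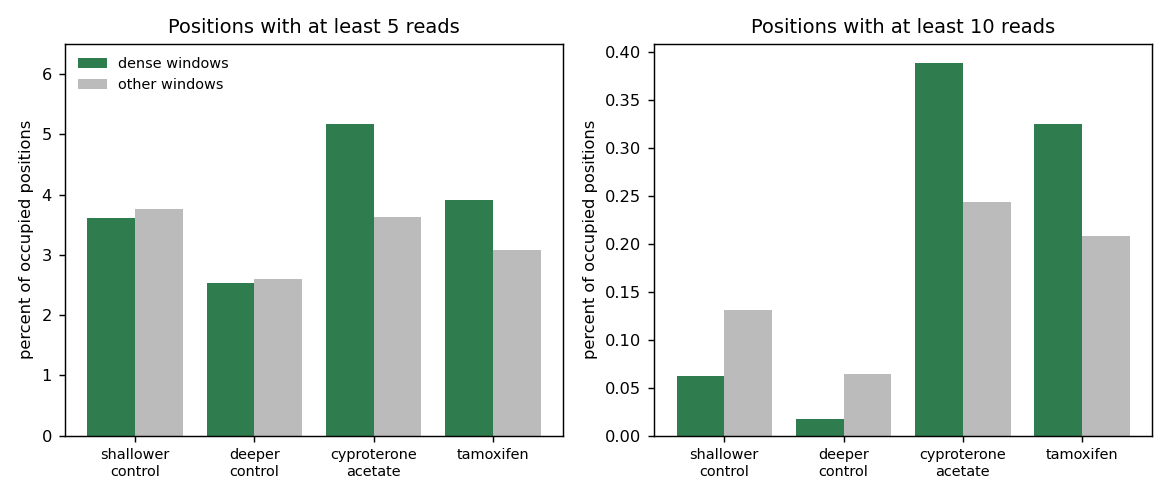
Percent of occupied positions (y axis, from 0) with at least 5 reads (left) and at least 10 reads (right) in the 4 libraries (x axis), dense windows in green and other windows in grey. In the controls the green bar is the lower one, and in both treated libraries it is the higher one.

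Both treated libraries stacked reads at many of the same places. Of the 758 cyproterone acetate positions with 10 reads or more in dense windows, 345 (45.5%) had 10 or more tamoxifen reads within 50 bp, and these were 59.5% of the 580 tamoxifen positions. In other windows the shares were similar, 590 of 1471 (40.1%) and 589 of 1086 (54.2%). At the 758 positions the median was 8 reads with tamoxifen and 1 in each control. Of them 273 (36.0%) had no read in the shallower control and 262 (34.6%) had none in the deeper one. The 1471 positions in other windows had a median of 8 reads with tamoxifen and 2 in each control. There 25.6% had no read in the shallower control and 25.2% had none in the deeper one, so such positions were not particular to dense windows. The 90 strong positions of the shallower control had a median of 2 reads in the deeper control, and 2 of them reached 10 there (at 80437187 and 189234422, named after their values were seen). In other windows 136 of 569 (23.9%) strong positions of the shallower control reached 10 reads in the deeper one. Positions picked for many reads in one library tend to have fewer in any other, so the libraries that took no part in the pick are those to compare.

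The strongest position of the treated libraries in dense windows was centred at 199381432, with 68 reads with cyproterone acetate, 86 with tamoxifen, 8 in the shallower control and 17 in the deeper one. At 198596777 there were 57 and 57.5 treated reads against 3 and 2. At 188645192, inside the longest domain, there were 42 and 56 against 8.5 and 4. These places were picked for their treated reads, so no comparison with the controls is drawn there. At 142686952 the treated libraries held 45 and 36 reads against 1 and 2, at 164614002 40 and 42 against 5 and 3, and at 197814852 37 and 57 against 6 and 5. The strongest position of the shallower control was centred at 200362337, with 19.5 reads there, 6 in the deeper control, 1 with cyproterone acetate and 4 with tamoxifen. It was picked for its shallower control reads, so no comparison is drawn there either.

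Window by window, the share of treated reads was set against both controls on the log2 scale, relative to the median of the 2607 windows with at least 20 positions. Both comparisons share the controls. The median dense window was at 0.03 with cyproterone acetate (from -0.31 to 0.63) and at 0.09 with tamoxifen (from -0.31 to 0.72). It was at -0.01 between the controls, shallower over deeper (from -0.31 to 0.28). Above 0 lay 310 of 508 dense windows with cyproterone acetate, 390 with tamoxifen and 239 between the controls. Counting at most 3 reads per position, the medians were -0.00, 0.06 and -0.00.

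A limit of 0.35 on the log2 scale was used to name windows. Above it lay 15 dense windows with cyproterone acetate (2.95%, against 1.69% of all 2607 windows) and 24 with tamoxifen (4.72%, against 1.99%). Below it lay no dense window with either drug, against 0.23% and 0.959% of all windows. Between the controls no dense window passed the limit, while 0.307% of all windows lay above and 0.614% below it. Dense windows hold more reads, which lowers the SD that counting alone gives. In the control pair that SD was 0.0870 for dense and 0.115 for other windows, and the measured SDs were 0.100 and 0.130. With cyproterone acetate the measured SD was 0.144 in both classes, against 0.0674 and 0.0895 from counting. With tamoxifen it was 0.141 in dense and 0.148 in other windows, against 0.0705 and 0.0955 from counting. With at most 3 reads per position 2 of the 508 dense windows were above the limit with cyproterone acetate, against 9 of all 2607 windows. The share of dense windows was then near that of all windows. With tamoxifen it was 4 of 508, against 10 of 2607. Within the authors' deposited tables, where the mean position ratio of a window is taken, there were 4 and 11 above and 8 and 4 below it. The share of all windows was not taken for that measure, so these counts have no background.

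The dense window with the most treated reads relative to the controls was the same for both drugs, from 187100001 to 187200000. It held 1214.5 reads with cyproterone acetate and 1076 with tamoxifen, against 556 and 578.5 in the controls, or 0.63 and 0.72 on the log2 scale. With at most 3 reads per position it was at 0.42 and 0.52. For cyproterone acetate the windows starting at 188700001 (0.61), 187800001 (0.58), 198500001 (0.50) and 187500001 (0.50) followed. For tamoxifen those starting at 187500001 (0.64), 188600001 (0.55), 258900001 (0.51) and 198500001 (0.51) followed. In the window starting at 198500001 just 5 positions carried 14.1% of the reads with cyproterone acetate and 18.7% with tamoxifen, and with at most 3 reads per position it was at 0.11 and 0.12.

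At the low end, cyproterone acetate was at -0.31 in the window from 113700001 to 113800000, with 695 reads against 603.5 and 644, where tamoxifen was at 0.00 with 718 reads. The windows starting at 250800001, 27400001, 107200001 and 107300001 were at -0.28, -0.27, -0.24 and -0.24, and there tamoxifen was at -0.02, -0.19, -0.04 and -0.09. Tamoxifen was lowest in the windows starting at 27900001 (-0.31), 3000001 (-0.30), 44500001 (-0.26), 114000001 (-0.21) and 27400001 (-0.19). The one starting at 44500001 was at -0.01 with cyproterone acetate. The lowest window of the control pair was at -0.31.

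Class medians of the treated share rose with domain length, though not every long domain was high. Windows that stood alone had a median log2 of 0.00 with cyproterone acetate and 0.04 with tamoxifen. Windows in domains of 2 or 3 were at 0.03 and 0.09, and those in domains of 4 or more at 0.08 and 0.15. The control pair was at -0.01, -0.02 and 0.00. The 174 windows in domains of 4 or more held 12 of the 15 windows past the limit with cyproterone acetate and 16 of the 24 with tamoxifen. The longest domain alone held 7 and 8 of them. Class medians without that domain were not taken, so length and location are not separated here. Classes by crowding differed less. In windows of 402 to 419, 420 to 439 and 440 or more positions the medians were 0.02, 0.03 and 0.04 with cyproterone acetate and 0.08, 0.11 and 0.10 with tamoxifen. With at most 3 reads per position the order with cyproterone acetate turned round, at 0.00, -0.01 and -0.02, and the medians with tamoxifen were 0.04, 0.08 and 0.06.

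Summed over the longest domain there were 10437.5 reads in the shallower control, 11314.5 in the deeper control, 18306 with cyproterone acetate and 15871.5 with tamoxifen. Relative to the median window this is 0.28 with cyproterone acetate, 0.34 with tamoxifen and 0.01 between the controls. All 19 windows were above 0 with tamoxifen and 18 with cyproterone acetate, and 8 and 7 passed the limit. Without this domain 8 dense windows passed it with cyproterone acetate in place of 15, and 16 with tamoxifen in place of 24. With at most 3 reads per position the median window of the domain was at 0.19 with tamoxifen and 0.11 with cyproterone acetate.

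The domain from 210200001 to 211400000 was at 0.16 with cyproterone acetate, 0.26 with tamoxifen and -0.00 between the controls. That from 199600001 to 200500000 was at 0.05, 0.09 and 0.01. The domain from 113600001 to 114400000 stood apart, at -0.11 with cyproterone acetate and 0.00 with tamoxifen, with 7 of its 8 windows not above 0 with the first drug. Crowding in the controls therefore did not go with a higher treated share in each domain. The segment from 185 to 215 Mb held 123 dense windows, among them 13 of the 15 past the limit with cyproterone acetate and 15 of the 24 with tamoxifen. Other windows of the segment were not counted in this way. These numbers therefore do not tell a trait of dense windows from one of the segment.

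**Figure D4:**
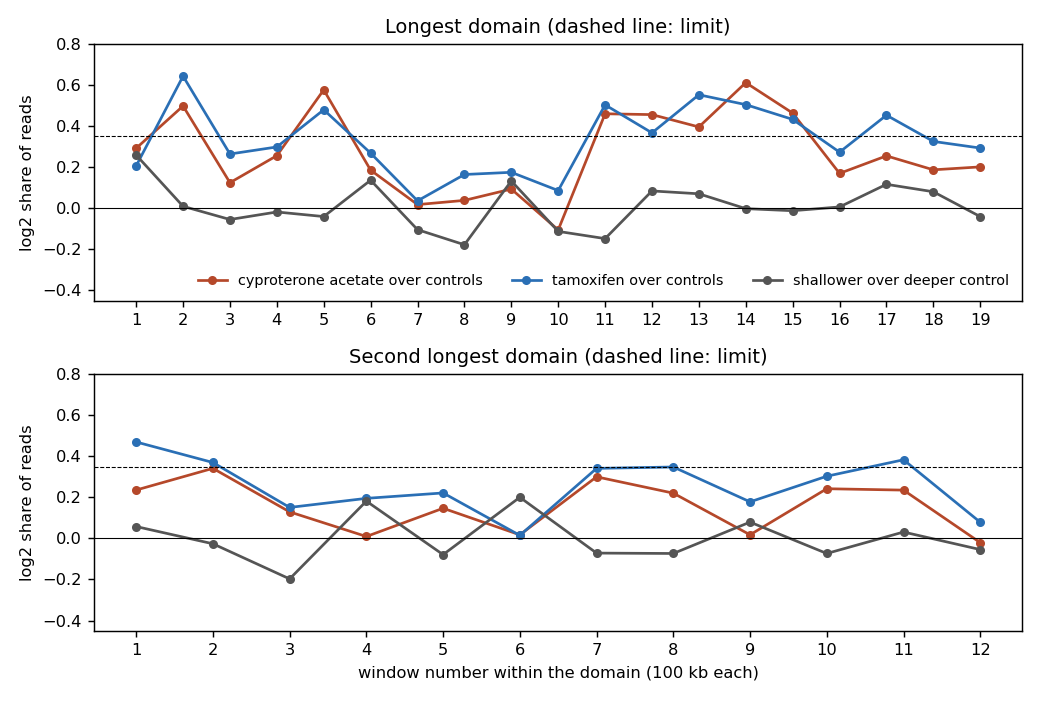
Log2 of the share of reads relative to the median window (y axis) for each 100 kb window of the 2 longest domains in chromosome order (x axis), for each drug over both controls and for the shallower over the deeper control; the dashed line is the limit of 0.35. In the longest domain tamoxifen lies above 0 in all 19 windows, and the control pair runs on both sides of 0.

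Neighbouring positions lay closer together in dense windows, as a row minimum requires in the control table. The treatment tables hold positions of the same controls as well, so their distances are not independent of the rule. The median distance between neighbouring centres was 190 bp there and 205 bp in other windows of the control table, 180 and 190 bp in the cyproterone acetate table, and 185 and 200 bp in the tamoxifen table. No centres were closer than 75 bp in any table. Pauses were where the classes parted most: 4.95% of distances in dense windows and 9.67% in other windows exceeded 500 bp in the control table, 2.97% and 6.39% in the cyproterone acetate table, and 4.20% and 9.06% in the tamoxifen table. 84 dense windows had no stretch above 1000 bp without a centre, against 26 of the 2147 other windows.

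Distances between centres had 1 clear peak. Over all pairs of centres in a dense window of the control table, distances of 120 to 139 bp were the most frequent, with 10.9 pairs per 100 positions. Past them the number fell to 8.33 at 200 to 219 bp, was 8.78 at 280 to 299 bp and 8.49 at 380 to 399 bp, a rise small beside the peak. From 240 bp to the last bin, near 1000 bp, it lay between 8.40 and 8.78. The treatment tables had a similar course, with 12.2 and 11.7 pairs at 120 to 139 bp and 9.27 to 9.65 and 8.83 to 9.11 beyond 240 bp. In other windows of the control table the largest value was 9.92, at 140 to 159 bp. At 1 or 2 reads a position, calls that overlap in different cells count as neighbours, and 28.7% of neighbouring centres in dense windows of the control table were closer than 150 bp, the fragment size.

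**Figure D5:**
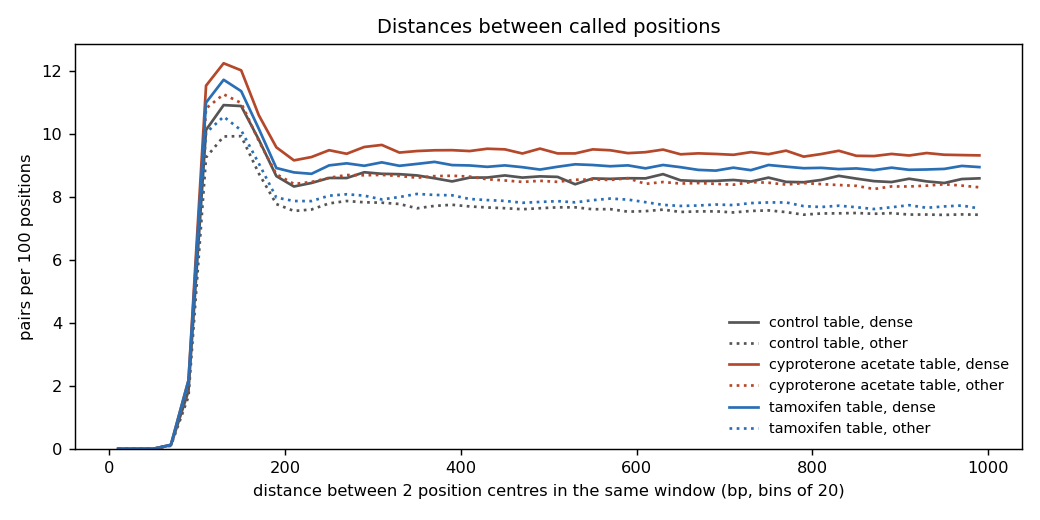
Pairs of position centres per 100 positions (y axis) by their distance in bp (x axis, bins of 20 bp) for the 3 tables, dense windows as solid and other windows as dotted lines. Each line has its highest hump between about 100 and 200 bp and, beyond a dip near 200 bp, only small rises.

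Fuzziness, a deposited score that grows as the reads of a position scatter, had a higher median in dense windows in all 4 libraries. Over occupied positions the medians in dense and other windows were 40.1 and 38.2 in the shallower control, 43.4 and 42.2 in the deeper control, 47.5 and 46.6 with cyproterone acetate and 46.5 and 43.8 with tamoxifen. Reads are here too the coverage at the summit, which need not count every read that enters the score. Positions matched on it may therefore still differ in read number. At positions of exactly 3 reads the differences were 0.23, 0.18, 0.90 and 0.75 in the same order. At 1 read the controls did not differ (37.0 and 37.8 in both classes), while cyproterone acetate was at 51.6 in dense and 46.6 in other windows and tamoxifen at 46.1 and 38.2. At 5 reads the shallower control was lower in dense windows, at 39.8 against 40.2, and the other libraries were higher there by 0.09 (deeper control), 0.62 (cyproterone acetate) and 0.55 (tamoxifen). Whether the closer neighbours of dense windows have a part in this score was not tested.

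Position by position, dense windows were called different about as often as the rest of the chromosome. In the authors' deposited table for cyproterone acetate, 14.2% of 236069 positions in dense windows had a false discovery rate of at most 0.05, against 13.4% of all positions. In the authors' deposited table for tamoxifen it was 17.1% of 223974 against 16.6%, and in that for both controls, also the authors' deposited table, 16.0% of 215053 against 15.7%. Differences of at least 2-fold were found in the authors' deposited tables at 74.0% of the dense positions against 75.5% of all for cyproterone acetate, 71.0% against 72.2% for tamoxifen and 77.7% against 78.3% for the control pair. These shares are near their backgrounds, and the control pair gave shares of the same order as the drugs, although each drug is set against 2 pooled controls and not against 1 library.

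Positions of dense windows had reads on both sides of a table somewhat more often, as counted from the coverage in the authors' deposited tables. For the control pair, 43.4% of positions in dense windows and 41.5% in other windows had reads from both. For cyproterone acetate the shares from the authors' deposited table were 58.2% and 54.3%, and for tamoxifen 58.1% and 54.4%. At those positions the summits of both sides, per the authors' deposited tables, lay a median of 30 bp apart for the control pair and 20 bp for each drug, in dense and in other windows alike. The control pair sets 1 library against 1, while each drug is set against 2 pooled controls. These shares and distances can therefore be compared between dense and other windows, but not between the control pair and the drugs.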

How the data were processed

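Per the submitters' processing notes, reads were handled with Bowtie2 and SAMtools 1.4 on build rn6. No source used here names the program that called positions. Of the deposited tables the 3 of chromosome 2 were used: both controls against each other, and each drug against both controls pooled. Per the file headers, each position has a coverage signal at its summit, which the authors scaled. The authors also deposited log2 ratios, summit distances and a false discovery rate, an adjusted p-value. The fuzziness score was deposited as such. Columns headed control in the treatment tables were read as the treated library: their values rise in steps of 1 size, as of 1 library, the pooled side has steps of 2 sizes, and the table names end in that sample's name. In all 36 further columns of library values, chromosome X included, were left out.

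The commonest value above 0 was taken as 1 read. All values were multiples of 0.5 reads (tolerance 5e-05 reads). Windows were counted from position centres with Python 3.11.15, numpy 2.4.6, pandas 2.3.3 and scipy 1.17.1, with 0.5 reads added for log2 ratios. Whether the 2 controls came from separate animals is not stated. The scripts were tested on simulated data. The members and lists were chosen with earlier results of these data known. Named windows are the 10 with most positions (11 with a tie), the 5 with fewest, runs of 4 or more and the 5 highest and lowest of each drug. No annotation or genome of rn6 was used here, so windows are given without genes or sequences.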

Additional observations from a re-analysis of the deposited data

How the results depend on the processing

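The number of dense windows was 244 with the minimum 20 positions higher (160 domains) and 793 with it 20 lower. Alternatives that kept about the same share of windows gave 517 to 520 windows and 258 to 261 domains when 1 control at a time was counted, with 438 (shallower) and 464 (deeper) of the 508 windows kept, and 541 windows, 415 of them shared, when reads in both controls were required. The longest domain was 9 windows with the minimum 20 higher, with shifted windows, with the shallower control alone and with reads in both.

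The difference in median reads per position between dense and other windows, 0.5 in both controls and with tamoxifen, was 0 at positions with at least 2 reads and at positions with reads on both sides. The difference in mean reads, -0.0003 in the shallower control, was -0.027 with at least 2 reads, 0.0040 with the higher minimum and -0.026 with reads on both sides. In the deeper control it turned from 0.018 to -0.016 with at least 2 reads and -0.014 with reads on both sides. With cyproterone acetate it was 0.143, 0.169 with the higher minimum and 0.125 with reads on both sides, and with tamoxifen 0.106, 0.085 with at least 2 reads and 0.083 with reads on both sides. The fuzziness difference with at least 2 reads was 0.67 (shallower control), 0.55 (deeper control) and 1.51 (tamoxifen), and 0.53 in the shallower control with reads on both sides. The difference in median spacing with reads on both sides was -45 bp (control table), -30 bp (cyproterone acetate) and -40 bp (tamoxifen), and -35, -15 and -25 bp with at least 2 reads on a side.

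Dense windows above the limit with cyproterone acetate, 15, were 2 with at most 3 reads per position, 3 at a limit of 0.5, 4 within the authors' table and 8 without the longest domain, and 17 to 18 against 1 control at a time. With tamoxifen, 24, they were 4, 7 and 11 in the same first 3 settings, 10 relative to the median dense window, and 26 to 31 against 1 control. Below the limit there were 8 (cyproterone acetate) and 4 (tamoxifen) within the authors' table, and 3 with tamoxifen relative to the median dense window. The excess share of reads in dense windows was 0.025 and 0.983 percentage points with at most 3 reads per position, 0.517 and 1.27 without the longest domain, 0.455 and 0.895 with the higher minimum, and 0.620 to 0.708 and 1.39 to 1.48 against 1 control. A higher limit or minimum lowers counts by construction; the cause of the other changes was not tested. Alternatives on mean reads and on the share of reads, and those without the longest domain, were chosen after seeing the data. No paired analysis was possible because each drug has 1 library and the control columns carry no replicate number. Most positions held 1 or 2 reads, so single positions limit what can be shown, while the sparsest dense window of the shallower control sums 426.5 reads.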

Other observations

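Reads and positions did not always go together. Outside the rule, 25 windows held as many control reads as the median dense window (1102.5 summed over both controls) in at most 401 positions, with a median of 341. Their 5 strongest positions held a median of 8.34% of the deeper control's reads, against 5.01% in dense windows. Both sets were picked on reads or positions of these same controls, so this difference describes the choice and is no independent result.

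Outside the rule, 11 windows, 1 of them among those 25, had at least as many occupied positions as the median dense window in both treated libraries, and 376 to 401 positions in the control table. 22 dense windows held a stretch of more than 5000 bp without a centre, against 1264 of the other 2147.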
